A study of Mus musculus with 12 samples.

Results

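Oxidative phosphorylation is carried out by the 5 large protein complexes of the inner mitochondrial membrane, and the genes described here are the nuclear genes for their subunits. They were taken by symbol: Ndufa, Ndufb, Ndufc, Ndufs and Ndufv for complex I, Sdha to Sdhd for complex II, Uqcr for complex III, Cox4 to Cox8 for complex IV and Atp5 for complex V, leaving out the Ndufaf assembly factors and pseudogenes. This gave 82 of the 19938 genes with a value: 36 of complex I, 4 of complex II, 8 of complex III, 17 of complex IV and 17 of complex V. Each gene was read from the brightest probe set that names it alone. Cox7c, Ndufb4 and Ndufb4b had only probe sets shared with another gene symbol and are not among the 82. RNA was measured on 12 GeneChip arrays from mature conventional dendritic cells sorted from mouse spleen at steady state. There were 6 groups of 2 biological replicates: cDC1 and cDC2, each from WT, Flt3 KO and Flt3L KO mice. Flt3 is a receptor tyrosine kinase of dendritic cell progenitors and their progeny, and Flt3L (gene Flt3l) is its ligand. The labels name each genotype without the deleted part of the gene, and give no strain, age or sort gate. Whether mice were pooled for a sample is not stated either. The p-values therefore reflect only how these samples differ from each other.

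Complex I takes electrons from NADH and complex II from succinate, ubiquinone carries them to complex III and cytochrome c to complex IV, and complex V uses the proton gradient that complexes I, III and IV build to make ATP. A part of the subunits of complexes I, III, IV and V is encoded in mitochondrial DNA. Of the 13 genes of that kind none had a value in the table, so the results are on nuclear genes alone. cDC1 are the dendritic cells specialised in presenting exogenous antigen to CD8 T cells, and cDC2 those that mainly prime CD4 T cells.

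Flt3 read 2299 ± 47.6 in WT cDC1 and 1779 ± 53.2 in WT cDC2 against 364 ± 9.58 and 361 ± 14.7 in the Flt3 KO groups (mean intensity ± SD, n = 2 arrays). Flt3l was lower in Flt3L KO cDC2, at 113 ± 6.27 against 147 ± 3.24 in WT, and read 124 ± 6.68 in Flt3L KO cDC1 against 113 ± 0.61 in WT. Whether the Flt3l probes lie in the deleted part is not given, so this is no check of that label. The 8 listed cDC1 markers, such as Xcr1 and Clec9a, were above cDC2 on every cDC1 array, and the 8 cDC2 markers, such as Sirpa and Irf4, were below it. Macrophage markers were the list that moved most with genotype in cDC2. Their summed intensity (10 of 10 with a value) was 925 to 927 in WT cDC2, 1194 to 1299 in Flt3 KO cDC2, 1979 to 2412 in Flt3L KO cDC2 and 739 to 857 in cDC1 of all genotypes. Of the 10, 8 lay above the lower quartile of the arrays in WT cDC2 and all 10 in Flt3L KO cDC2 and in WT cDC1. They did not all move one way. From WT to Flt3L KO cDC2 the means of C1qa, C1qb and C1qc went from 146, 118 and 82.2 to 679, 478 and 265. Timd4 fell from 226 to 144, and Marco read 56.5 and 53.1. The first WT cDC1 array had a lower quartile of 25.7 against 23.3 to 24.3 on the other arrays, and its pair differed more from each other (SD of the log2 difference 0.21, against 0.13 to 0.15 in the other groups).

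Averaged over the 3 genotypes, most tested subunit genes of each of the 5 complexes were higher in cDC1 than in cDC2. This did not hold for each complex within each knockout, as given below for complexes III and IV. In WT, 59 of the 81 members tested were higher and 1 was lower in cDC1, where 21.0% of the 14954 genes tested were higher and 18.4% lower (limma, Benjamini-Hochberg adjusted p under 0.05). The median log2 difference of the members was 0.36, beside 0.07 over all tested genes, and single members ran from -0.32 for Cox6b2 to 0.94 for Uqcr11. In all of them the difference was thus under 1 log2 unit. Averaged over the 3 genotypes, 63 members were higher and 3 lower, beside 28.1% and 23.5% of all genes. The members' median was then 0.27, and that of all genes 0.03. All 6 cDC1 arrays lay above all 6 cDC2 arrays for 45 of the 81 members, beside 17.6% of all genes, and all 6 lay below for 1, Cox6b2, beside 15.1% of all genes. The 82nd member, Cox7b2, was too dim to be tested.

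The members are bright genes, so they were also set beside genes of like level. Among the 1073 tested genes at or above the members' median level, 40.3% were higher and 36.3% lower in cDC1 averaged over genotypes. Of the 41 members at that level, 34 were higher. In WT the same figures were 31.0% of these bright genes and 32 of the 41 members. In Flt3 KO they were 32.0% and 26 of the 41. In Flt3L KO they were 29.1% and 12 of the 41, so there the bright members were called higher at about the share of the bright genes.

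**Figure D1:**
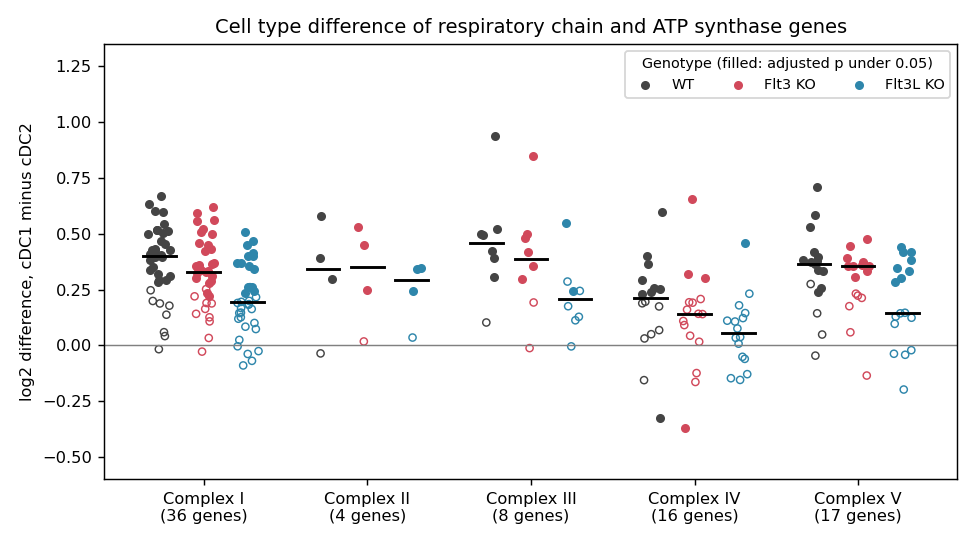
Log2 intensity difference between cDC1 and cDC2 (vertical axis) of each tested subunit gene (1 point), by complex and by genotype (colour). Filled points had an adjusted p under 0.05 in limma, and black bars are medians. In complex I the medians are 0.40 in WT, 0.33 in Flt3 KO and 0.19 in Flt3L KO, and complex IV has the lowest median in each genotype, at 0.21, 0.14 and 0.06.

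In complex I, 28 of 36 genes were higher in cDC1 in WT and 30 of 36 averaged over genotypes, with none lower. The 6 nuclear subunits of its catalytic core, which hold the flavin and the iron-sulfur clusters, had a median averaged difference of 0.19 with 5 called higher. The 28 accessory subunits, which surround that core, had a median of 0.34 with 24 higher. The division into these roles was made after values were seen, and the difference between them was not tested.

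Ndufa12, an accessory subunit of the matrix arm, had the smallest p of complex I. Its intensity was 596 and 669.6 in WT cDC1 against 381 and 414 in WT cDC2, 629.5 and 612 against 420.4 and 423 in Flt3 KO, and 612 and 581 against 416 and 424 in Flt3L KO. Every cDC1 array was above every cDC2 array, and within cDC2 both WT arrays were the lowest. The averaged log2 difference was 0.58 ± 0.047 (SE from the fit, n = 6 arrays against 6), 1.49-fold, with a limma adjusted p = 2.09e-07. Ndufs5, a small accessory subunit, read 421 and 455 in WT cDC1 against 305 and 296 in WT cDC2, 467 and 442 against 291 and 312 in Flt3 KO, and 368 and 364 against 286 and 286 in Flt3L KO. Again no cDC1 array fell among the cDC2 arrays, and both Flt3L KO cDC1 arrays were the lowest cDC1 values. Its averaged difference was 0.50 ± 0.044 (limma adjusted p = 4.75e-07). Ndufs4 is an accessory subunit whose loss in mice gives a complex I deficiency. It read 1213 and 1415 in WT cDC1 against 844 and 847 in WT cDC2, 1341 and 1473 against 958 and 872 in Flt3 KO, and 1158 and 1067 against 828 and 799 in Flt3L KO. The cell types did not overlap, and both Flt3L KO cDC1 arrays were again lowest among cDC1. The averaged difference was 0.57 ± 0.054 (limma adjusted p = 9.61e-07).

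The calls did not cover all of complex I. Ndufs1, the large iron-sulfur subunit of the core, differed by 0.024 ± 0.063 averaged over genotypes, and Ndufa11, a membrane-arm subunit, by 0.056 ± 0.047, and neither passed the test (limma adjusted p = 0.793 and 0.36). Both were singled out after their values were seen. The smallest difference was that of Ndufa4l2, a relative of Ndufa4 that is induced in hypoxia, at 0.013 ± 0.079 (limma adjusted p = 0.911). Ndufa4l2 was dim, at 28.7 to 40.9 over the 12 arrays. Ndufa4 itself, counted here by its symbol, is now known as a subunit of complex IV. It differed by 0.36 ± 0.05 (limma adjusted p = 3.80e-05).

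Complex II, which is also an enzyme of the TCA cycle, split by subunit: 3 of its 4 genes were higher in cDC1 in each of the 3 genotypes, and the fourth was called in none of them. Sdhd and Sdhc encode the membrane anchors. Sdhd read 281 and 255 in WT cDC1 against 187 and 172 in WT cDC2, 280.1 and 265 against 185 and 193 in Flt3 KO, and 265 and 254 against 203 and 206 in Flt3L KO. The cell types did not overlap in any genotype, and the averaged difference was 0.48 ± 0.046, 1.40-fold (limma adjusted p = 1.11e-06). Sdhc read 466 and 433 in WT cDC1 against 355 and 377 in WT cDC2, 436 and 461 against 376 and 379 in Flt3 KO, and 499 and 454 against 405 and 400.1 in Flt3L KO, and its difference was 0.26 ± 0.046 (limma adjusted p = 2.76e-04). Sdhb, the iron-sulfur subunit, read 931 and 1036 in WT cDC1 against 759 and 740.2 in WT cDC2, 1008 and 1016 against 768 and 713 in Flt3 KO, and 936 and 969 against 743 and 752 in Flt3L KO. All 6 cDC1 arrays of Sdhc and of Sdhb were above all cDC2 arrays, and the Sdhb difference was 0.40 ± 0.045 (limma adjusted p = 5.84e-06). Sdha, the flavoprotein that oxidises succinate, read 1231 and 1302 in WT cDC1 against 1313 and 1282 in WT cDC2, 1341 and 1384 against 1329 and 1362 in Flt3 KO, and 1394 and 1362 against 1353 and 1337 in Flt3L KO. The cell types overlapped in WT and in Flt3 KO, and the averaged difference was 0.0058 ± 0.041 (limma adjusted p = 0.921).

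**Figure D2:**
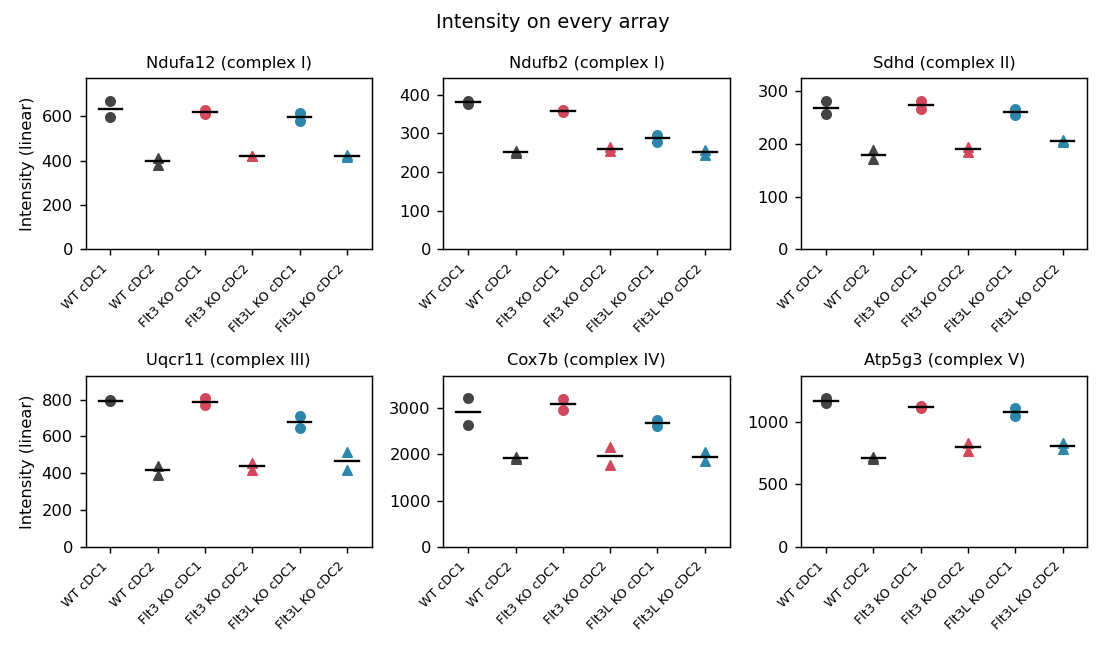
Intensity (linear scale, from 0) on each of the 12 arrays of 1 or 2 subunit genes of each complex: circles are cDC1, triangles cDC2, colours genotypes and black bars means of 2 arrays. In all 6 genes every cDC1 array lies above every cDC2 array, and Ndufb2 in Flt3L KO cDC1, at 278 and 295, lies nearer to cDC2 than WT cDC1 does, at 376 and 384.

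In complex III, 7 of 8 genes were higher in cDC1 in WT and again averaged over genotypes. In Flt3 KO 6 were higher and in Flt3L KO 2, beside 19.1% and 18.9% of all genes. Uqcr11, a small accessory subunit, had the largest difference of all members. It read 799 and 791 in WT cDC1 against 440.4 and 392 in WT cDC2, 769 and 806 against 458 and 418 in Flt3 KO, and 713 and 648 against 515 and 419 in Flt3L KO. The lowest cDC1 value, on a Flt3L KO array, was still above the highest cDC2 value. In WT the difference was 0.94 ± 0.10, 1.91-fold, and averaged over genotypes 0.78 ± 0.06, 1.71-fold (limma adjusted p = 1.01e-05 and 1.29e-07). These values are from the brighter probe set of Uqcr11, and its dimmer probe set gave 0.62 averaged over genotypes. Uqcrc2, a core subunit, read 934 and 949 in WT cDC1 against 718 and 716 in WT cDC2, 943 and 984 against 776 and 730.0 in Flt3 KO, and 937 and 934 against 793 and 788 in Flt3L KO, and Uqcr10, a small subunit, read 1180.1 and 1220.3 in WT cDC1 against 873 and 803 in WT cDC2, 1201 and 1274 against 972 and 808 in Flt3 KO, and 1113 and 1055 against 904 and 926 in Flt3L KO. The cell types did not overlap in either gene. Their averaged differences were 0.33 ± 0.041 and 0.41 ± 0.054 (limma adjusted p = 1.27e-05 and 1.97e-05). Uqcrh, the acidic hinge subunit at the cytochrome c site, was the exception, with 3809 and 3681 in WT cDC1 against 3601 and 3377 in WT cDC2, 3553 and 3636 against 3641 and 3607 in Flt3 KO, and 3326 and 3333 against 3219 and 3465 in Flt3L KO. Some cDC2 arrays were above cDC1 arrays, and the difference was 0.029 ± 0.043 (limma adjusted p = 0.616).

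Complex IV had the fewest calls for its size. In WT 8 of its 16 tested genes were higher in cDC1 and 1 lower, and averaged over genotypes 9 were higher and 2 lower. In Flt3 KO 3 of the 16 were higher and 1 lower, beside 19.1% and 16.4% of all genes. In Flt3L KO 1 was higher and 0 lower, beside 18.9% and 15.9% of all genes. Within the knockouts, complex IV genes were thus called higher at about the share of all genes or below it. The 10 widely expressed subunits had a median averaged difference of 0.18 with 8 higher, and the 6 tested isoforms known from muscle, lung or testis had a median of -0.04 with 1 higher and 2 lower. These isoforms were dim: over the 6 of them and 12 arrays the values ran from 31.0 for Cox8b to 104 for Cox6b2, where the medians of the arrays were 59.0 to 63.0. Cox7b, a small subunit needed for assembly of the complex, read 2630.2 and 3204 in WT cDC1 against 1935 and 1904 in WT cDC2, 3189.6 and 2959.9 against 2165 and 1759 in Flt3 KO, and 2733 and 2610.5 against 2049 and 1845 in Flt3L KO. It was the only complex IV gene called higher in all 3 genotypes, and its averaged difference was 0.57 ± 0.066, 1.48-fold (limma adjusted p = 6.64e-06). Cox6a1, the widely expressed form of subunit 6A, read 4535 and 4540.2 in WT cDC1 against 3437 and 3437 in WT cDC2, 4636 and 4445 against 3852 and 3513 in Flt3 KO, and 4520.0 and 4185 against 3810.2 and 3869.6 in Flt3L KO and differed by 0.29 ± 0.044 (limma adjusted p = 7.76e-05). Its muscle form, Cox6a2, read 64.9 to 82.3 and was lower in cDC1, at -0.16 ± 0.06 (limma adjusted p = 0.0442). That call was lost with no filter on dim genes (adjusted p 0.0583), with the trended and robust prior (0.0518) and without any 1 of 9 of the 12 arrays. Adjusted p was 0.109 without the second WT cDC1 array, and the highest value was 0.135 without the first Flt3L KO cDC1 array.

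Cox6b2, the testis form of subunit 6B, read 76.6 and 85.6 in WT cDC1 against 99.7 and 103 in WT cDC2, 71.6 and 82.6 against 100.3 and 98.5 in Flt3 KO, and 90.1 and 90.8 against 104 and 94.2 in Flt3L KO. It was the only member with all 6 cDC1 arrays below all 6 cDC2 arrays. The averaged difference was -0.27 ± 0.052, 1.21-fold lower in cDC1 (limma adjusted p = 5.62e-04). Cox6b2 was also called lower in WT and in Flt3 KO alone, but single arrays carried these calls. The WT call was lost without the first WT cDC1 or the second WT cDC2 array, at -0.24 and -0.30. The Flt3 KO call was lost without the first Flt3 KO cDC1 array, at -0.27. Cox7a1, the muscle form of subunit 7A, and Cox7a2, its widely expressed form, were both higher in cDC1, by 0.25 ± 0.072 and 0.23 ± 0.054 (limma adjusted p = 0.0118 and 0.00278). Cox7a1 read only 48.6 to 72.5. Cox4i1 was higher by 0.13 ± 0.04 (limma adjusted p = 0.0192), a call lost without the second WT cDC2, the second Flt3 KO cDC1 or the first Flt3L KO cDC2 array (adjusted p 0.0504 to 0.0567), and its lung form Cox4i2 differed by -0.051 ± 0.048 (limma adjusted p = 0.412). Cox8a was higher by 0.18 ± 0.045 (limma adjusted p = 0.0038), and its muscle form Cox8b differed by -0.029 ± 0.067 (limma adjusted p = 0.756).

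In complex V, the ATP synthase, 13 of 17 genes were higher in cDC1 in WT, and 14 were higher and 1 lower averaged over genotypes. The c ring, the rotor in the membrane, is built from 1 mature protein that Atp5g1, Atp5g2 and Atp5g3 encode with different targeting peptides. All 3 were higher in cDC1. Atp5g3 read 1185 and 1147 in WT cDC1 against 719.6 and 705 in WT cDC2, 1122 and 1107 against 831 and 769 in Flt3 KO, and 1105 and 1048 against 779 and 832 in Flt3L KO, and Atp5g1 read 583 and 565 in WT cDC1 against 396 and 399 in WT cDC2, 563 and 586 against 423 and 421 in Flt3 KO, and 587 and 549.8 against 421 and 428 in Flt3L KO. In both genes the cell types stood clear of each other in each genotype. The averaged differences were 0.54 ± 0.044, 1.45-fold, and 0.46 ± 0.041, 1.38-fold (limma adjusted p = 2.30e-07 and 5.20e-07). Atp5g2 read 609.6 and 599 in WT cDC1 against 500.4 and 522 in WT cDC2, 621 and 611 against 558 and 533 in Flt3 KO, and 575 and 586 against 505 and 558 in Flt3L KO and differed less, by 0.18 ± 0.044 (limma adjusted p = 0.00325). Atp5k, subunit e of the membrane part, read 309 and 322 in WT cDC1 against 207 and 213 in WT cDC2, 339 and 299 against 247 and 249 in Flt3 KO, and 282 and 249.8 against 199 and 208 in Flt3L KO. Its lowest cDC1 array and its highest cDC2 array nearly met, and the difference was 0.44 ± 0.05 (limma adjusted p = 5.05e-06).

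Of the 5 subunits of the catalytic F1 head, 4 were higher in all 3 genotypes, among them Atp5b, the catalytic beta subunit. The fifth, Atp5d of the central stalk, was lower in cDC1 averaged over genotypes, at -0.13 ± 0.045 (limma adjusted p = 0.0307), and called in no single genotype. Atp5d read 741 to 847 on cDC1 arrays and 816 to 921 on cDC2 arrays, so the cell types overlapped, and leaving out any 1 of 5 arrays ended the call (adjusted p 0.0670 to 0.101). Atp5l, subunit g, had the smallest difference of complex V, 0.023 ± 0.052 (limma adjusted p = 0.745). It was also the only one of 17 members with several probe sets whose probe sets differed in sign.

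Promoter sequence was not used in the choice by symbol. RefSeq windows of GRCm38.p6, from 250 bases before to 50 after a start, were at hand for 67 of the 82 members. Known motifs of factors that act on nuclear genes of mitochondria were searched as exact letters on both strands, and matches of different motifs overlapped in no member window. The core of NRF1 (GCGCA, any base, GCGC) was in the windows of 16 of the 67 members, 23.9%, against 7.17% of 17491 protein-coding genes and 5.19% of all 27025 genes with a window. The ETS core (CCGGAAG), bound by GABP among others, was in 17, 25.4%, against 12.9% of protein-coding genes. The YY1 core (AAGATGGCG) was in 7, 10.5% against 2.14%, and the ESRRA motif (TCAAGGTCA) in 2, 2.99% against 0.377%. The CCAAT box, a general promoter motif, was in 29, 43.3%, against 42.3% of protein-coding genes. Members with a match to any of the first 4 motifs had a median averaged difference of 0.32, with 28 of 34 tested higher in cDC1, and those with none a median of 0.27, with 25 of 32 higher. Whether these differ was not tested, and a match is a description of letters, not of a binding site.

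**Figure D3:**
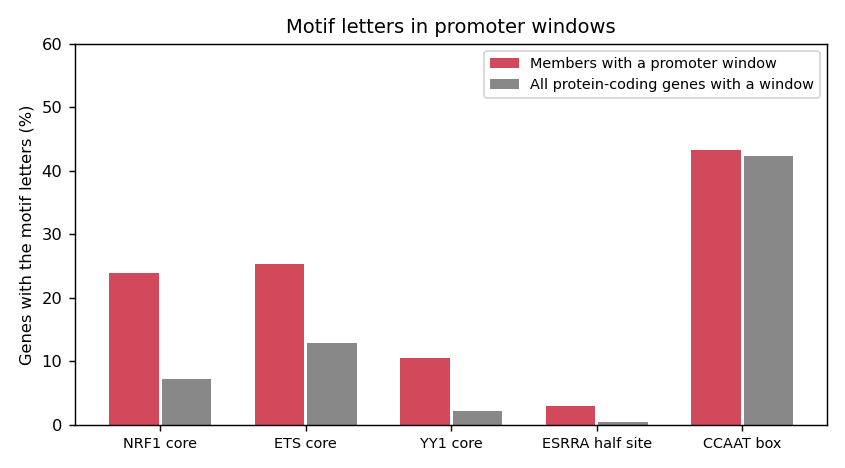
Share of genes with a promoter window (%) in which the letters of each of 5 motifs occur on either strand, for the 67 members (red) and for 17491 protein-coding genes (grey). The shares are 23.9% against 7.17% for NRF1 and 43.3% against 42.3% for the CCAAT box.

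To show these matches, the 250 bases before the start are given for 1 gene of each complex: the member with the smallest p averaged over genotypes whose window holds one of the first 4 motifs. All 5 lie on the minus strand, are written 5′ to 3′ along the gene, and have the matches of those 4 motifs in capitals. They are Ndufs5 at chr4:123718187-123718436, Sdhd at chr9:50603850-50604099, Uqcr11 at chr10:80406822-80407071, Cox6a1 at chr5:115348959-115349208 and Atp5g3 at chr2:73911327-73911576.
Ndufs5: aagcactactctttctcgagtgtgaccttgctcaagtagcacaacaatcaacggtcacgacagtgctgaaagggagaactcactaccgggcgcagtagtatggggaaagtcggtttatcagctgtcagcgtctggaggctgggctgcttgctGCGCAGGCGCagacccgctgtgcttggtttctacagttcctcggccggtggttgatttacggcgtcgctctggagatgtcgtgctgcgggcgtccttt
Sdhd: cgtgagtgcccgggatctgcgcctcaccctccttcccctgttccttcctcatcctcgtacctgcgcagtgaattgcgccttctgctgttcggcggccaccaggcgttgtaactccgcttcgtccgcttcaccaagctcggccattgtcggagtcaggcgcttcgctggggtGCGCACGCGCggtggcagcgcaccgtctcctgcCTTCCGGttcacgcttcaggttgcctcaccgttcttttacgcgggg
Uqcr11: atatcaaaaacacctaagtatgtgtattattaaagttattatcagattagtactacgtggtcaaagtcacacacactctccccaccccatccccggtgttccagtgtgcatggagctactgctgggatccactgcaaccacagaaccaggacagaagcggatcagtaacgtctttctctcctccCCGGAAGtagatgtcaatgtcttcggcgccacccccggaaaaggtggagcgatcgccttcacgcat
Cox6a1: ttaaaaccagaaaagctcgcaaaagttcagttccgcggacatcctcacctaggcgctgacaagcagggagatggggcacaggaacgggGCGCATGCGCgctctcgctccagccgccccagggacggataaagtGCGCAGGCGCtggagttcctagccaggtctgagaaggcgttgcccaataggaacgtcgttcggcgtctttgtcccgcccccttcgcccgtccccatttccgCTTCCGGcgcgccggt
Atp5g3: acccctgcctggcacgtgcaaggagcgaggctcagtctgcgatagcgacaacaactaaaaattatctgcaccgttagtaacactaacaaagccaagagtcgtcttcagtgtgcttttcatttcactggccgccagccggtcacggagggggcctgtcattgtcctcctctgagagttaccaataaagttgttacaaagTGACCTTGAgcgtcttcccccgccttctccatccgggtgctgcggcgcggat
Ndufs5 has 1 NRF1 match, Sdhd an NRF1 and an ETS match, Uqcr11 1 ETS match, Cox6a1 2 NRF1 matches and an ETS match, and Atp5g3 an ESRRA match. Sdhd and Atp5g3 each have 1 further match after the start, in the bases not shown.

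The median difference of the members between the cell types was lowest in Flt3L KO, though no single member passed the test of a change in that difference against WT (given further on). In Flt3 KO, 49 of 81 members were higher and 1 lower in cDC1, with a median of 0.31, beside 19.1% and 16.4% of all genes and an all-gene median of 0.005. In Flt3L KO, 28 were higher and none lower, with a median of 0.17, beside 18.9% and 15.9% of all genes and an all-gene median of 0.008. At the bright level described above, 12 of 41 members were higher in Flt3L KO. That is about the 29.1% of the 1073 bright genes that were higher, and 29.1% of these were lower. The 28 genes were all called in WT as well. They comprise 14 of complex I, 3 of complex II, 2 of complex III, Cox7b and 8 of complex V. All were called in Flt3 KO too. Of the 81 members, 20 were called higher in no genotype. The difference was smaller in Flt3L KO than in WT for 73 members, beside 55.0% of all genes. It was smaller in Flt3 KO than in WT for 58, beside 53.1% of all genes. For 70 it was smaller in Flt3L KO than in Flt3 KO, a count without a share over all genes here. These counts share arrays, so they are not separate observations.

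Single arrays moved these counts. Without the second Flt3 KO cDC2 array, 30 members were called in Flt3 KO in place of 50 in both directions. The 2 arrays of that group stood apart: the first was higher than the second in 70 of 81 members, with a median log2 difference of 0.11. Without the first Flt3L KO cDC1 array or the second Flt3L KO cDC2 array, 17 were called in Flt3L KO in place of 28. The median over members stayed at 0.14 to 0.21 in Flt3L KO over the 12 omissions of 1 array, and at 0.24 to 0.38 in Flt3 KO. In RNA from sorted populations, fewer cells of a type and less RNA per cell cannot be told apart. Summed cDC1 markers were 1297 to 1394 in WT cDC2, 1641 to 1701 in Flt3 KO cDC2 and 1587 to 1598 in Flt3L KO cDC2, against 12614 to 14410 in cDC1. Their part in the lower median, and that of the macrophage markers above, was not tested.

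**Figure D4:**
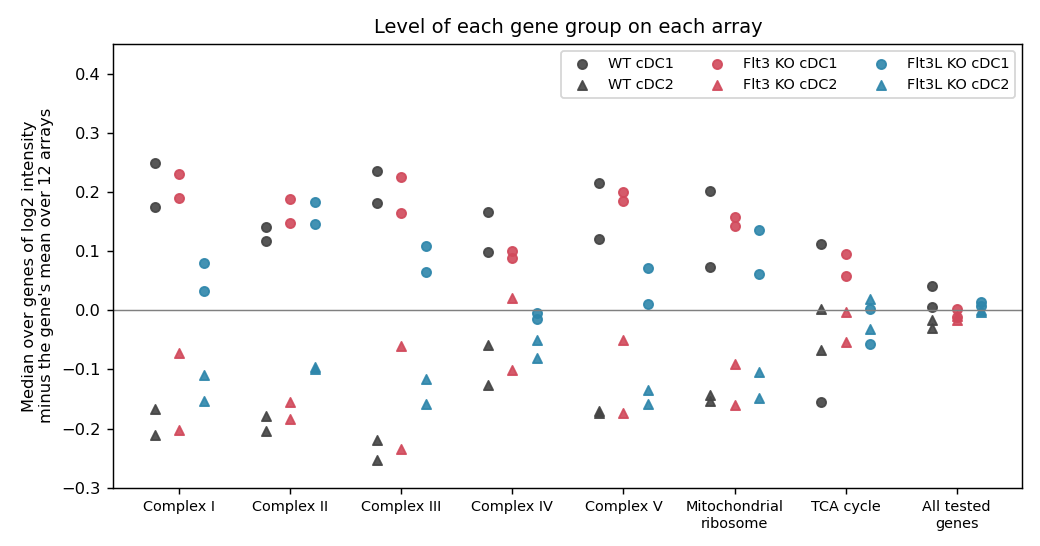
Median over the genes of each group of log2 intensity minus the gene's mean over the 12 arrays, 1 point for each array; circles are cDC1, triangles cDC2, and colours are genotypes. In complex I the 2 Flt3L KO cDC1 arrays are at 0.03 and 0.08, below the other 4 cDC1 arrays at 0.17 to 0.25, while all cDC2 arrays are below 0.

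By array, the Flt3L KO cDC1 arrays stood below the other cDC1 arrays. The median over all 81 members of the centred log2 level was 0.16 and 0.20 on the WT cDC1 arrays, 0.19 and 0.16 in Flt3 KO cDC1 and 0.07 and 0.03 in Flt3L KO cDC1. In cDC2 it was -0.17 and -0.19 in WT, -0.06 and -0.19 in Flt3 KO and -0.11 and -0.13 in Flt3L KO. Both Flt3L KO cDC1 arrays were still above every cDC2 array.

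Loss of the ligand in cDC1 gave 1 call among the members. Ndufb2, a membrane-arm subunit of complex I, read 376 and 384 in WT cDC1 against 249 and 253 in WT cDC2, 359 and 355 against 265 and 254 in Flt3 KO, and 295 and 278 against 245 and 257 in Flt3L KO. WT and Flt3L KO cDC1 did not overlap, and all cDC2 arrays were between 245 and 265. The log2 difference of Flt3L KO from WT in cDC1 was -0.41 ± 0.073, 1.33-fold lower (limma adjusted p = 0.0228, n = 2 arrays against 2), where 1.19% of all genes were called in either direction. The call was lost without the first WT cDC1 array (adjusted p 0.0539) and without the first or second Flt3L KO cDC1 array (0.0983 and 0.130), while the difference stayed between -0.36 and -0.45. It was also lost when only the 4 arrays compared entered the fit (0.280). Without the second WT cDC1 array, Cox8b was called as well, at -0.37 (adjusted p 0.0455). In cDC2 Ndufb2 differed by -0.0026 ± 0.073 (limma adjusted p = 0.992), and the test of whether the effect differs between the cell types gave 0.41 ± 0.10 (adjusted p = 0.111).

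The other members in Flt3L KO cDC1 mostly had negative values that did not pass the test one by one. Of the 81, 72 were below 0, with a median log2 difference of -0.12, and 22 had an unadjusted p under 0.05. In the same arrays 1 of 8 cDC1 markers was lower than in WT (Tlr3, at a mean of 690.1 against 1129) and 1 of 8 tested macrophage markers (Timd4, at 132 against 247), with limma adjusted p = 0.0454 and 0.00246. Their part in the members' values was not tested. Over all tested genes the median was -0.01, 46.9% were above 0, and 2558 of 14954 had an unadjusted p under 0.05. Over the 1073 bright genes the median was -0.03. The complexes had medians of -0.11 for I, 0.02 for II, -0.16 for III, -0.12 for IV and -0.12 for V. Atp5mpl, a small membrane subunit of complex V named here after its value was seen, followed Ndufb2 with -0.37 ± 0.099 (limma adjusted p = 0.091). Atp5b went the other way, at 0.24 ± 0.086 (limma adjusted p = 0.187), with 2919.8 and 3149 in WT cDC1 against 2323 and 2473 in WT cDC2, 3107 and 3064 against 2516 and 2308 in Flt3 KO, and 3640.2 and 3509 against 2799 and 2475 in Flt3L KO. Its Flt3L KO cDC1 arrays were the highest of all 12. Without 1 array at a time the median over members stayed between -0.17 and -0.07. Set against Flt3 KO, with which the comparison above shares the Flt3L KO arrays, the members' median in cDC1 was -0.11 with 14 of 81 above 0. The median was 0.01 over all genes and -0.05 over the 1073 bright genes. Over 8 other settings of the processing the members' median ran from -0.12 to -0.06. No member was called by limma there (17 at an unadjusted p under 0.05), beside 0.883% of all genes (53.6% of all genes above 0, 2363 of 14954 at an unadjusted p under 0.05). Ndufb2 at -0.32 and Ndufs5 at -0.31 were called there without the first or without the second WT cDC1 array (adjusted p 0.0418 and 0.0434).

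In Flt3L KO cDC2 against WT none was called by limma, beside 1.95% of all genes. The median was 0.04, 60 of 81 were above 0 and 5 had an unadjusted p under 0.05. Over all genes the median was 0.02, 55.5% were above 0 and 2185 of 14954 had an unadjusted p under 0.05. Uqcrc1, a core subunit of complex III, had the smallest p. It read 897 and 858 in WT cDC2 and 1079 and 1016 in Flt3L KO cDC2, a difference of 0.25 ± 0.075 (limma adjusted p = 0.12). Sdhd at 0.19 ± 0.08 and Uqcrfs1, the Rieske iron-sulfur protein, at 0.20 ± 0.086 came next (limma adjusted p = 0.296 and 0.299). In these arrays 5 of 8 tested macrophage markers were higher and 1 lower than in WT, among them C1qa at 4.60-fold and Vcam1 at 2.27-fold, 2 of 8 cDC1 markers (Irf8 and Cadm1) were higher, and the cDC2 marker Clec4a4 was lower. Their part in the members' values was not tested. Set against Flt3 KO in cDC2, none was called by limma and 1 had an unadjusted p under 0.05, beside 0.930% of all genes called and 1892 of 14954 at an unadjusted p under 0.05.

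The test of the difference itself, the effect of Flt3L KO in cDC2 minus that in cDC1, called none of the 81 by limma, beside 0.495% of all genes. The members' median was 0.15, with 73 above 0 and 14 at an unadjusted p under 0.05. Over all genes the median was 0.03, 55.0% were above 0 and 2220 of 14954 had an unadjusted p under 0.05. Averaged over both cell types, Flt3L KO against WT called none by limma (9 at an unadjusted p under 0.05), beside 1.67% of all genes called higher and 1.33% lower. The smallest p values were those of Ndufb2 at -0.21 ± 0.051, Atp5b at 0.19 ± 0.06 and Ndufs5 at -0.16 ± 0.054 (limma adjusted p = 0.0526, 0.125 and 0.126). Ndufb2 passed there under 4 of 8 other settings of the processing.

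Loss of the receptor moved no member past the test. In cDC1 Flt3 KO against WT called none by limma and 0 had an unadjusted p under 0.05, beside 0.0802% of all genes called. The median was 0.003 and 44 of 81 were above 0, while 49.4% of all genes were above 0 and 1873 of 14954 had an unadjusted p under 0.05. The smallest p values were those of Cox7a1 at -0.20 ± 0.13, Sdha at 0.11 ± 0.071 and Ndufa8, an accessory subunit of complex I, at -0.11 ± 0.076 (limma adjusted p = 0.51, 0.537 and 0.555). Without the second WT cDC1 array 2 members were called, Cox8b at -0.35 and Ndufs1 at 0.32 (limma adjusted p = 0.0385 and 0.0496). In cDC2 none was called by limma and 2 had an unadjusted p under 0.05, beside 0.107% of all genes called. The median there was 0.05 and 66 of 81 were above 0. Over all genes the median was 0.01, 54.0% were above 0 and 1089 of 14954 had an unadjusted p under 0.05.

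Atp5k read 207 and 213 in WT cDC2 and 247 and 249 in Flt3 KO cDC2. These pairs did not overlap, and the difference was 0.24 ± 0.086 (limma adjusted p = 0.517). Atp5g3 at 0.17 ± 0.076 and Ndufb9, an accessory subunit of complex I, at 0.15 ± 0.082 followed (limma adjusted p = 0.685 and 0.777). In Flt3 KO cDC2, 2 of 8 tested macrophage markers, C1qa and Vcam1, were higher than in WT, and their part was not tested. Averaged over cell types Flt3 KO called none by limma (0 at an unadjusted p under 0.05), beside 0.254% of all genes, with Atp5k at 0.13 ± 0.061, Ndufs4 at 0.11 ± 0.066 and Ndufb9 at 0.093 ± 0.058 first (limma adjusted p = 0.504, 0.61 and 0.616). The effect of Flt3 KO in cDC2 minus that in cDC1 called none of the members by limma (0 at an unadjusted p under 0.05) and 0 of all 14954 genes.

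**Figure D5:**
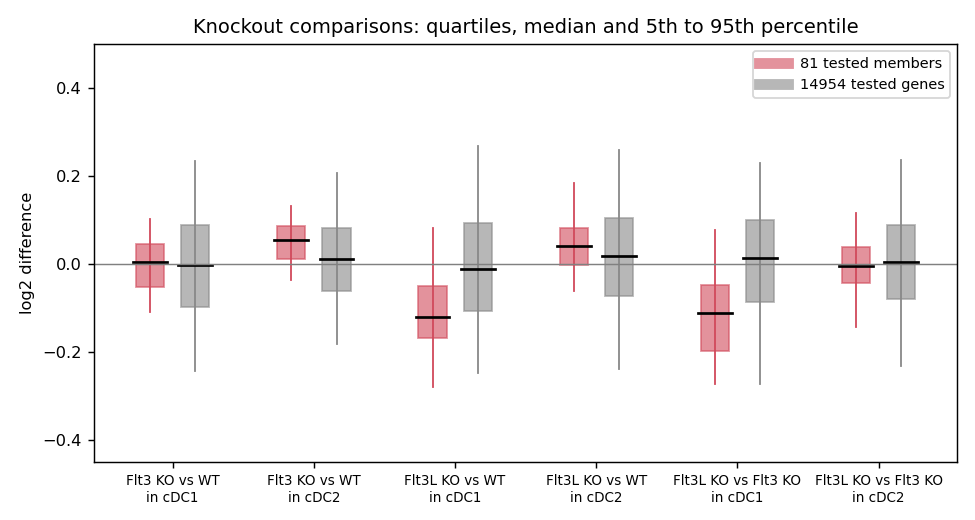
Log2 differences of the 6 knockout comparisons within a cell type, for the 81 tested members (red) and all 14954 tested genes (grey); boxes are quartiles, black bars medians and lines run from the 5th to the 95th percentile. The members' median is -0.12 in Flt3L KO against WT in cDC1 and -0.11 against Flt3 KO in cDC1, and between -0.01 and 0.05 in the other 4 comparisons.

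Other genes of the same organelle did not all follow the subunits in cDC1 against cDC2, taken averaged over genotypes. The ribosome of mitochondria, which makes the subunits that mitochondrial DNA encodes, had 59 of 77 genes higher and 3 lower, with a median of 0.26. Its smallest p values were those of Mrpl42 at 1.75 ± 0.08 and Mrpl18 at 0.88 ± 0.051 (limma adjusted p = 5.91e-10 and 6.55e-09). The import machinery had 13 of 24 higher and 1 lower, with Tomm5 of the outer membrane at 0.71 ± 0.05 and Timm13 of the intermembrane space at 0.50 ± 0.045 (limma adjusted p = 5.21e-08 and 6.52e-07). Among electron carriers and other partners of the chain, listed together, 6 of 11 were higher and 1 lower. Cycs, cytochrome c itself, was higher by 0.65 ± 0.072, and Higd2a, which associates with complex IV, by 0.40 ± 0.046 (limma adjusted p = 4.45e-06 and 7.20e-06). Over all genes 28.1% were higher and 23.5% lower in this comparison.

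The TCA cycle did not move one way: 5 of 16 genes were higher, 4 lower and the median was 0.03. These values are near those over all genes, with 28.1% higher, 23.5% lower and a median of 0.03. Suclg1, a subunit of succinyl-CoA ligase, was higher by 0.78 ± 0.045, and Mdh2, mitochondrial malate dehydrogenase, lower, at -1.21 ± 0.067 (limma adjusted p = 7.06e-09 and 4.22e-09). Regulators of mitochondrial gene expression had 1 of 18 higher and 7 lower, with a median of -0.02. Ppargc1a, a coactivator of genes for mitochondrial proteins, had the smallest p, at -2.95 ± 0.079, 7.71-fold lower in cDC1, followed by Myc at -1.14 ± 0.062 (limma adjusted p = 2.95e-12 and 3.80e-09).

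Assembly factors were mixed, and their counts stand beside the same 28.1% higher and 23.5% lower over all genes. For complex I, 7 of 15 were higher and 1 lower, with Ndufaf6 at 1.06 ± 0.062 and Ndufaf7 at -0.66 ± 0.064 (limma adjusted p = 8.36e-09 and 1.37e-06). For complex II, Sdhaf1 was lower, at -0.83 ± 0.046, and Sdhaf4 higher, at 0.33 ± 0.087, of 4 tested (limma adjusted p = 4.13e-09 and 0.00589). Sdhaf1 helps insert the iron-sulfur clusters into Sdhb, whose own gene went the opposite way. For complex III, 3 of 5 were higher and 1 lower, with Uqcc3 at 0.54 ± 0.043 and Uqcc1 at 0.45 ± 0.072 (limma adjusted p = 1.59e-07 and 1.48e-04). For complex IV, 11 of 19 were higher and 2 lower, with Cmc2 at 0.91 ± 0.063 and Coa5 at 0.78 ± 0.053 (limma adjusted p = 4.28e-08 and 3.28e-08). For complex V, 3 of 4 were higher, led by Atpif1, the inhibitor that binds the ATP synthase when it runs in reverse, at 1.14 ± 0.045, 2.20-fold, and Tmem70 at 0.63 ± 0.053 (limma adjusted p = 1.55e-10 and 2.86e-07).

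Against WT within a cell type, these lists had 4 calls in the knockouts, all in Flt3L KO cDC2, where 1.95% of all genes were called. The lists held 77, 24, 11, 16 and 18 tested genes, and 15, 4, 5, 19 and 4 assembly factors of complexes I to V. Whether the 4 calls depart from the share over all genes was not tested. Mrpl42 and Mrpl17 were lower, at -0.66 ± 0.14 and -0.33 ± 0.073, and Ppargc1a and Sdhaf1 higher, at 0.64 ± 0.14 and 0.38 ± 0.079 (limma adjusted p = 0.0298, 0.0404, 0.0311 and 0.0308). The part of the macrophage markers in these 4 was not tested either. Against Flt3 KO there was 1 call, Sdhaf4, lower in Flt3L KO cDC1 at -0.71 ± 0.15 (limma adjusted p = 0.0494), where 0.883% of all genes were called. In Flt3L KO cDC1 the median of the mitochondrial ribosome genes was -0.06, with 53 of 77 below 0 and none called by limma (12 at an unadjusted p under 0.05).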

How the data were processed

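RNA of 12 samples was labelled with the Ambion WT Expression and GeneChip WT Terminal Labeling kits, per the labels' protocols. The authors deposited 1 table of linear intensity values for 30177 probe sets. Its background correction, normalization and summarisation are not given in the sources used here. Of the probe sets, 21789 name 1 gene, 1621 several and 6767 none, by GEO's platform annotation; 19855 of 19938 genes matched RefSeq by Entrez ID. Each intensity was taken to log2, and 999 genes with several probe sets were read from the one with the highest mean. Genes in the lowest 0.25 by mean level (log2 under 4.78) were left out, which kept 14954. limma 3.58.1 in R 4.3.3 was fitted with 1 mean for each of the 6 groups on all 12 arrays, with Benjamini-Hochberg adjustment over the 14954 genes and a threshold of 0.05. The script was tested on simulated data. With 2 arrays for each group, the number of arrays limits the precision.

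The members, gene lists, motifs and tests were chosen with earlier results of these data known, and the roles within a complex and the promoters shown after values were seen. Named members are the 3 with the smallest p of each complex, the one with the smallest difference, all of complex II, the isoform families, those called lower in cDC1 or called in a knockout comparison and, where a knockout comparison called none, the 3 with the smallest p. Of each other list, the 2 genes with the smallest p are named. The alternatives tried were 2 other normalizations (quantile, cyclic loess), 2 other filters (none, or a cut at 0.5 of the genes), eBayes with a trend and robust option, averaging the probe sets of a gene, fits on the compared groups alone, a block for replicate number, and omission of single arrays.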

Additional observations from a re-analysis of the deposited data

How the results depend on the processing

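The number of arrays and, for dim genes, the brightness of the probes limit these values. Over 8 other settings of the processing the members called in cDC1 against cDC2 numbered 53 to 62 in WT, 46 to 58 in Flt3 KO, 26 to 37 in Flt3L KO and 65 to 67 averaged over genotypes. Leaving out 1 array at a time gave 47 to 60, 30 to 55, 17 to 30 and 63 to 69. With 1 array at a time left out, the knockout comparisons called 0 to 2 members in Flt3 KO cDC1, in Flt3L KO cDC1 and in Flt3L KO against Flt3 KO in cDC1, and 0 in the others; an array left alone in its group is assumed to vary like the other groups. With the trended and robust prior, 6 were called in Flt3L KO cDC1, 1 (Uqcrc1) in Flt3L KO cDC2, 3 (Ndufb2, Atp5b and Uqcrc1) in Flt3L KO averaged over cell types and 3 (Ndufb2, Ndufs4 and Ndufs5) in Flt3L KO against Flt3 KO in cDC1. With only the arrays compared, 0 were called in Flt3L KO cDC1. Flt3L KO averaged over cell types had 2 (Ndufb2 and Atp5b) with quantile normalization, 1 (Ndufb2) with cyclic loess and 1 (Ndufb2) with the stricter filter on dim genes, and Flt3L KO against Flt3 KO in cDC1 had 2 (Ndufb2 and Ndufs5) with that filter. With the replicate block 59, 50, 28 and 65 members were called in cDC1 against cDC2 in WT, Flt3 KO, Flt3L KO and averaged, and 1 in Flt3L KO cDC1; of the named genes, Cox6a2 lost its call under the block (adjusted p 0.0568), as it did when dim genes were kept (0.0583) and with the trended, robust prior (0.0518). The labels do not say that the numbers pair samples, and replicate differences of 2 groups correlated at -0.199 to 0.172 over genes.

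Of the values of named members under alternatives, 868 kept direction and side of the threshold, 27 lost the call, 7 gained it and 13 changed sign, all of the last in members not called in cDC1 against cDC2 averaged over genotypes. With cyclic loess Ndufa4l2 became -0.0052, Sdha -0.025 and Atp5l -0.0061. With 1 array left out at a time Ndufa4l2 ran from -0.056 to 0.082, Sdha from -0.0076 to 0.019, Atp5l from -0.0046 to 0.052 and Cox8b from -0.10 to 0.044. The cause of these changes was not tested.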
